A study of Mus musculus with 6 samples.

Results

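Selenocysteine is an amino acid that carries selenium, and it is built into proteins at a UGA codon that would otherwise end translation. Its synthesis takes place on a dedicated tRNA, and a hairpin in the 3′ UTR of the mRNA, the SECIS element, recruits the factors that let the ribosome read through. The proteins made in this way are the selenoproteins, many of which are redox enzymes, and several sit in the endoplasmic reticulum (ER). The 10 genes described here were taken by their symbols from 27179 genes of the expression table, and every symbol was found once. Of these, 5 belong to the synthesis machinery (Sephs2, Pstk, Sepsecs, Secisbp2 and Eefsec), and Sephs2 is itself a selenoprotein. Selenos, Selenok and Selenon encode selenoproteins of the ER membrane, whereas Selenop is secreted and Selenow is cytosolic, so the ER holds only some of the selenoproteins among these genes.

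B16F10, an established mouse melanoma line with the genotype given as wild type, was exposed for 6 h to 0.01% ozonated olive oil (OZO, 3 cultures) or to 0.01% olive oil (OLO, 3 cultures), and RNA of the 6 cultures was sequenced. The values used here are the authors' averages over all 6 libraries in log2 CPM, which scales the reads of a gene to the size of its library. These averages join both treatments. The effect of OZO against OLO and the spread between cultures were not analysed here, so the levels below describe B16F10 cells under oil in general. An average of 1 CPM stood for 19.6 reads per library, and 21154 of the 27179 genes (77.8%) had at least 1 read. The melanocyte identity of the cells was plain in the table, since all 7 pigment cell markers lay between 109 and 7052 CPM, with Dct highest and Sox10 lowest. By contrast, the 5 keratinocyte markers were all at or below 0.0553 CPM, and Krt5 had no reads in any library. Of the other cell types, the highest markers were Pdgfra at 3.28 CPM for fibroblasts, Cd68 at 5.47 CPM for leukocytes and Pecam1 at 1.21 CPM for endothelium.

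The codons that define these genes as selenoprotein genes are shown first, because the machinery described below acts on them. In GENCODE M21 on GRCm38, the build named mm10 in the labels, the 6 selenoprotein genes among the 10 hold 15 such codons. Each sequence gives the coding strand of the transcript, 5′ to 3′, with 12 bases on each side and the codon read as selenocysteine in capitals.
Sephs2: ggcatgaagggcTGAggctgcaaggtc
Selenow: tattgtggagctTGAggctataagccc
Selenon: gaccagtcctgcTGAggttccgggcgg
Selenok: atggctggtggaTGAggaaggtaaatg
Selenos: tcatctggcggcTGAaactaagactct
Selenop, first codon: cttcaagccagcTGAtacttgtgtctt
Selenop, last codon: aggaagtgaaaaTGAcattcaaactaa

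The place of the codon differed widely among the 6 genes. In Sephs2 it was codon 63 of 452, in the single exon of the gene, at chr7:127273731-127273733 on the minus strand. Selenow carried it at codon 13 of 88, in exon 2 of 6, at chr7:15920464-15920466 on the minus strand. The codon of Selenon was number 428 of 557 and lay in exon 9 of 12, at chr4:134542338-134542340 on the minus strand. In these 3 genes a long stretch of coding sequence follows the codon, from 75 codons in Selenow to 389 in Sephs2.

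Selenok and Selenos, in contrast, carried it next to the end of the protein. In Selenok it was codon 92 of 94, in exon 4 of 5, at chr14:29973440-29973442 on the plus strand, and in Selenos it was codon 189 of 190, in the last of 6 exons, at chr7:66088844-66088846 on the plus strand. A stop at this codon would thus leave out 3 residues of Selenok, the selenocysteine among them, and 2 of Selenos. Selenop, whose product delivers selenium through the blood, was the one gene of the 24 mouse selenoprotein genes with more than 2 such codons. It held 10, from codon 59 in exon 2 (chr15:3274848-3274850, plus strand) to codon 377 of 380 in exon 5 (chr15:3279696-3279698, plus strand), and the other 8 also lay in exon 5. In the sequence printed for its last codon, the preceding selenocysteine codon, number 375, is visible in lower case. Over the 6 genes, the base after the codon was G in 6 of 15 cases, C in 5, A in 3 and T in 1. Over the 19 codons of the 18 other selenoprotein genes it was G in 8, C in 6, A in 4 and T in 1.

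**Figure D1:**
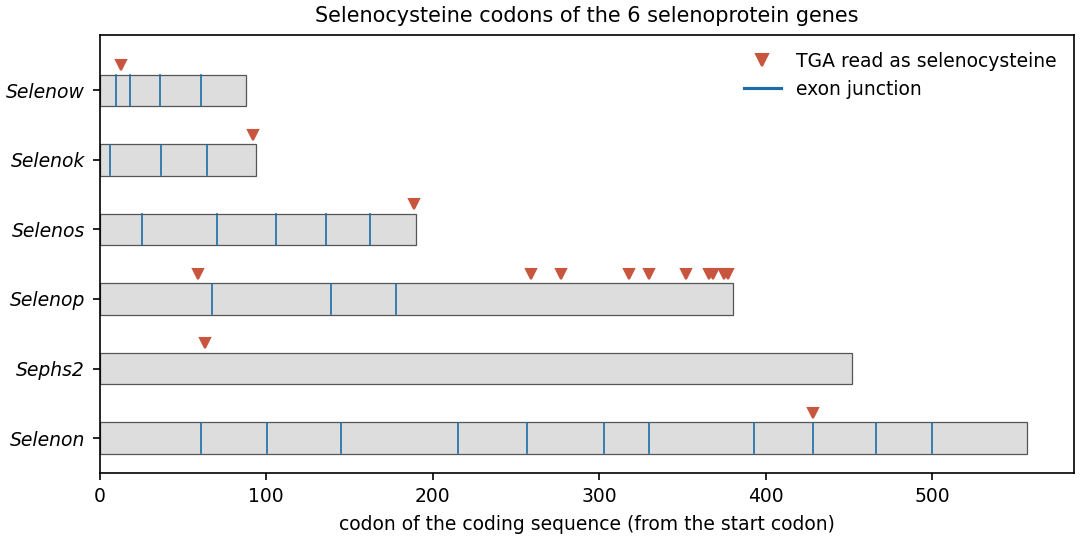
Map of the coding sequences of the 6 selenoprotein genes, drawn to scale in codons from the start codon, with exon junctions as blue lines and each TGA read as selenocysteine as a red triangle. The triangle lies at codon 13 of 88 in Selenow and at codon 189 of 190 in Selenos, and Selenop has 10 triangles, of which 9 follow its last junction.

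A premature stop upstream of an exon junction is a feature by which nonsense-mediated decay recognises an mRNA, and unread UGA codons of selenoprotein mRNAs can be treated in this way. Among the 6 genes, the first selenocysteine codon began more than 50 bases before the last exon junction in 3, by 219 bases in Selenon, 246 bases in Selenow and 360 bases in Selenop. In Selenok the distance was 8 bases, in Selenos the codon began 77 bases after the last junction, and Sephs2 has no junction. Average levels of these genes are given beside this for description only. Selenow and Selenop had 27.2 and 26.4 CPM per kb of transcript and Selenon had 10.95, whereas Selenok had 34.0, Sephs2 20.0 and Selenos 9.75 CPM per kb. Among the 24 selenoprotein genes, 13 had the codon more than 50 bases before the last junction, with a median of 26.5 CPM per kb of the transcript that carries the mapped codon and a range from 0.0371 to 204. On the same scale the other 11 had a median of 9.97 CPM per kb and a range from 0.0164 to 162. Only 9 of the 13 and 9 of the 11 had at least 1 CPM. The low ends were Dio1 and Dio3, with 0.733 and 0.154 reads per library. The overlap of the ranges thus rests in part on genes hardly read in these cells. No test was made, since the level of an mRNA depends on much else, and whether decay acted was not tested.

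All 10 genes were expressed. Each averaged at least 11.6 CPM, which was 228 reads per library for the lowest of them, Selenos. The levels spanned 6.41-fold, up to 74.4 CPM (1461 reads per library) for Eefsec, and all 10 lay above the median of the genes with reads, 2.73 CPM. Among the 11878 genes with at least 1 CPM, whose median was 31.6 CPM, 5 of the 10 lay above and 5 below. Those above were Eefsec, Selenok, Selenop, Sephs2 and Selenon. The median of the 10 genes was 28.6 CPM, close to that of expressed genes as a whole.

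**Figure D2:**
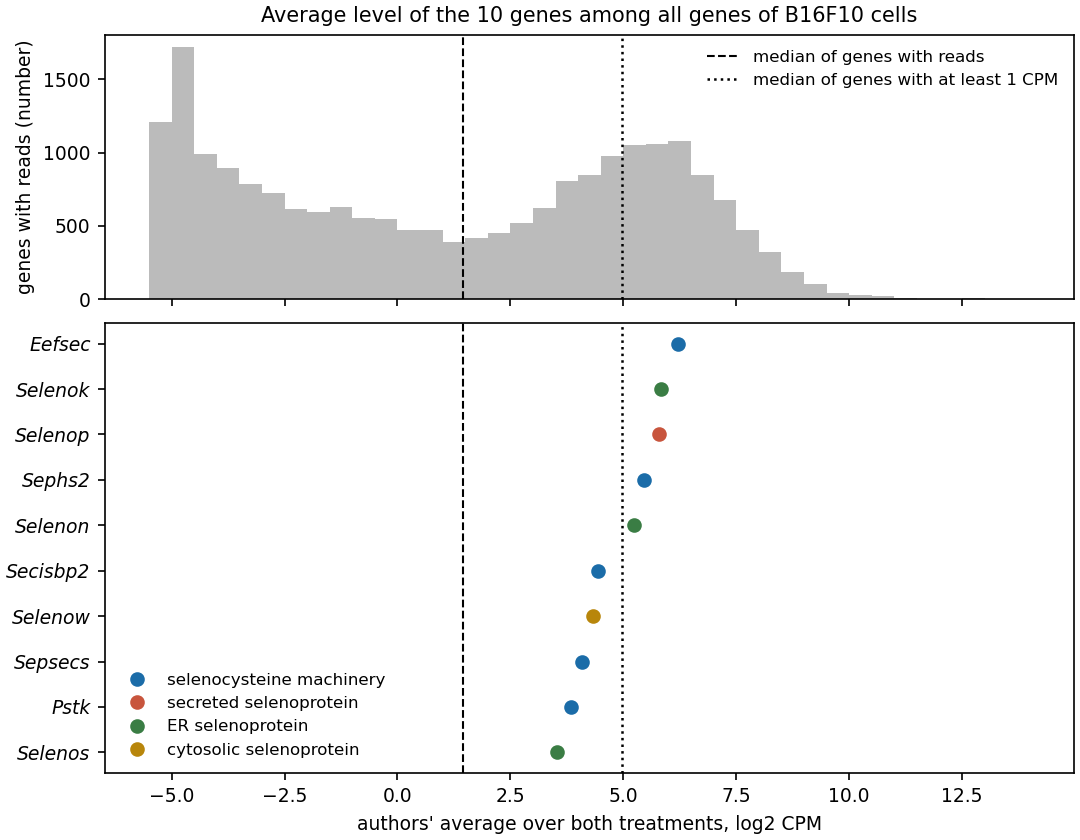
Top, number of genes with reads by the authors' average log2 CPM over both treatments. Bottom, the same average for the 10 genes, coloured by role, where dashed and dotted lines mark the medians of genes with reads (2.73 CPM) and of genes with at least 1 CPM (31.6 CPM). All 10 points lie right of the dashed line, from Selenos at 3.54 to Eefsec at 6.22 log2 CPM.

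In the machinery, the first step after charging of the tRNA with serine is its phosphorylation by PSTK. Pstk averaged 14.4 CPM, with 283 reads per library, the lowest level of the 5 machinery genes. SEPSECS then turns the phosphoserine into selenocysteine, and Sepsecs averaged 16.9 CPM with 331 reads per library. The selenium donor for that step, selenophosphate, is made by SEPHS2, and Sephs2 averaged 43.6 CPM with 857 reads per library. These enzymes of 1 pathway therefore differed by up to 3.02-fold in read level before gene length is taken into account.

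Decoding at the ribosome needs SECISBP2, which binds the SECIS element, and EEFSEC, the elongation factor that brings the tRNA. Secisbp2 averaged 21.6 CPM with 425 reads per library, whereas Eefsec stood at 74.4 CPM. From counting error alone, the 95% intervals (exact binomial, Clopper-Pearson) of the 5 genes did not overlap. They ran from 13.7 to 15.1 CPM for Pstk, 16.1 to 17.6 for Sepsecs, 20.8 to 22.5 for Secisbp2, 42.4 to 44.8 for Sephs2 and 72.8 to 75.9 for Eefsec. Such intervals leave out the spread between cultures and between treatments, which this average does not give, so the order of neighbouring genes could not be tested.

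Among the other 5 genes, Selenok was highest at 57.0 CPM (1119 reads per library), followed by Selenop at 55.1 CPM (1083 reads). Their counting intervals, 55.6 to 58.4 and 53.8 to 56.5 CPM, overlapped. SELENOK binds the palmitoyltransferase ZDHHC6 and the degradation machinery of the ER. Selenon, whose product is an ER protein linked to calcium handling and muscle disease, averaged 37.7 CPM with 741 reads per library. Selenow, a small thioredoxin-like protein, averaged 20.0 CPM with 393 reads. Selenos, whose product ties the ATPase VCP to the ER membrane, averaged 11.6 CPM. Selenok thus stood 4.91-fold above Selenos in CPM, and 3.49-fold per kb of the longest transcript, 3.84-fold over the union of exons and 9.93-fold per kb of coding sequence.

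Because long transcripts give more reads, levels between genes were also compared per kb of the longest annotated transcript. On this scale Selenok led with 34.0 CPM per kb, and Eefsec (27.8), Selenow (27.2) and Selenop (26.4) followed. The counting interval of Selenow, 26.1 to 28.3 CPM per kb, overlapped those of both Eefsec (27.2 to 28.3) and Selenop (25.8 to 27.1), so Selenow could not be placed against either. Sephs2 had 20.0 CPM per kb, and Selenon and Selenos had 10.95 and 9.75. Secisbp2 (6.51), Sepsecs (3.21) and Pstk (2.73) were the lowest of the 10. Selenow, whose transcript of 736 bases is the shortest of the set, moved from the seventh place by CPM to the third per kb.

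The 3 lowest values depended on the length used, and that of Pstk also on which transcript is taken. For Pstk the longest transcript, 5294 bases, is annotated as a retained intron with a single exon, whereas the longest coding transcript has 1135 bases in 6 exons. With the latter, an alternative added after the values were seen, Pstk had 12.7 CPM per kb and stood above Selenon. The longest transcripts of the other 9 genes are coding, so their values were the same under this choice. With the coding length alone, Pstk had 13.4, Sepsecs 11.1 and Secisbp2 8.41 CPM per kb, so that Secisbp2 became the lowest of the 10. Selenok, with a coding sequence of 282 bases in a transcript of 1678, rose to 202 CPM per kb of coding sequence and remained the highest under every length tried. Whichever length was used, these 3 machinery genes, with Selenon and Selenos, stayed below Eefsec and Sephs2.

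**Figure D3:**
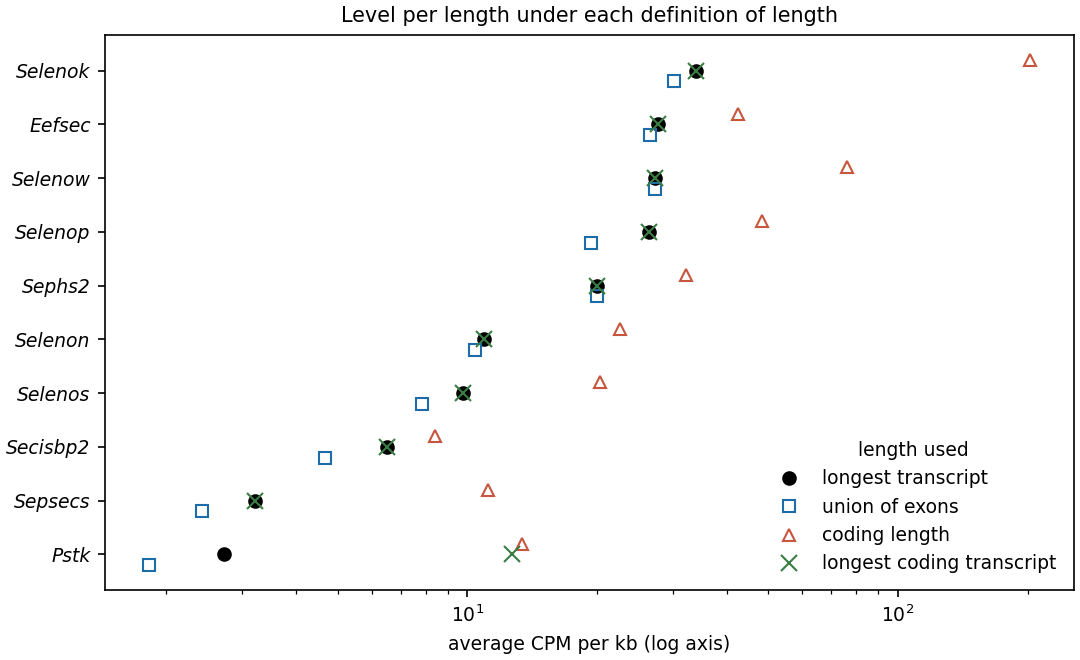
Average CPM per kb (log axis) of the 10 genes with 4 definitions of length: longest transcript, union of exons, coding length and longest coding transcript. Pstk moves from 1.82 to 13.4 and Selenok from 30.2 to 202 CPM per kb, whereas Eefsec stays between 26.6 and 42.5.

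Some of the genes share exon bases with neighbours on the opposite strand. Reads in such bases may have been added to these genes or left out of their counts, so the direction is not known. The kit marks the strand, but whether the authors' counting used it is not given in the sources used here. In GENCODE M21, 58.8% of the exon bases of Pstk (chr7:131371141-131394482, plus strand) are also exon of Ikzf5. For Sephs2 (chr7:127271879-127274055, minus strand) 36.4% are shared with Gm44729, an unclassified transcript, and for Selenop (chr15:3268547-3280508, plus strand) 15.4% with the coding gene Ccdc152. Eefsec (chr6:88257334-88446539, minus strand) shares 11% with the antisense gene Gm44264. The 6 other genes share no exon base with another annotated gene. These are Sepsecs (chr5:52640087-52669708, minus strand), Secisbp2 (chr13:51651697-51684044, plus strand), Selenos (chr7:66079649-66089405, plus strand), Selenok (chr14:29968308-29975662, plus strand), Selenon (chr4:134537892-134552166, minus strand) and Selenow (chr7:15917208-15922402, minus strand). A processed copy of Selenok, Selenok-ps1, is listed apart with 0.289 CPM, and how reads that match both were assigned is not known. The part of these overlaps in the levels was not tested.

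Set beside the whole family of 24, the 6 selenoprotein genes lay in the middle. Among the 18 genes with at least 1 CPM, however, Selenon and Selenos stood near the low end per kb. All 24 mouse selenoprotein genes had reads, and 18 had at least 1 CPM, among them all 6 described here. The 6 under 1 CPM were Dio1, Dio2 and Dio3, which activate or inactivate thyroid hormone, Gpx2 and Gpx3, peroxidases of gut and plasma, and Selenov. These ran from 0.0333 CPM (Dio3) to 0.282 CPM (Gpx3), or at most 5.04 reads per library. Per kb, Selenok, Selenow, Selenop and Sephs2 took places 7 to 10 of the 24, and Selenon and Selenos places 14 and 16. Above them stood Txnrd1 (162 CPM per kb), the cytosolic thioredoxin reductase, Selenot (135), Gpx4 (123), which reduces lipid hydroperoxides, Selenof (115), Gpx1 (75.5) and Selenoh (41.2). This order held for the longest transcript and shifted with other lengths. With the transcript on which the codons were mapped, a choice added after the values were seen, the length changed for 4 of the 24 genes, none of them among the 6. Selenof (204 CPM per kb) then came first, and Selenop and Sephs2 moved to places 10 and 11, behind Selenom (26.5). Selenom lay within the counting interval of Selenop, 25.8 to 27.1 CPM per kb, so these 2 could not be placed against each other. Over the union of exons Selenot was first and Selenok took place 6, Selenow 8, Sephs2 9, Selenop 10, Selenon 13 and Selenos 16. Per kb of coding sequence Selenot was again first and Selenok rose to place 4, whereas Selenow stood at 9, Selenop at 10, Sephs2 at 13, Selenon at 15 and Selenos at 16. Gpx4 exceeded Selenow by 4.52-fold per kb of the longest transcript, by 2.61-fold over the union of exons and by 2.12-fold per kb of coding sequence. Selenot, Selenof and Selenom also encode ER proteins. With Selenos, Selenok and Selenon, these 6 genes ranged from 9.75 (Selenos) to 135 CPM per kb (Selenot) by the longest transcript. By the mapped transcript they ranged up to 204 (Selenof). They are not a full set of ER selenoproteins. Dio2 (0.0432 CPM per kb of the longest transcript) and Selenoi (15.6) were left out of this range. Together the 24 genes summed to 1999.9 CPM, of which the 6 genes gave 225 CPM and Txnrd1 alone 586 CPM.

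**Figure D4:**
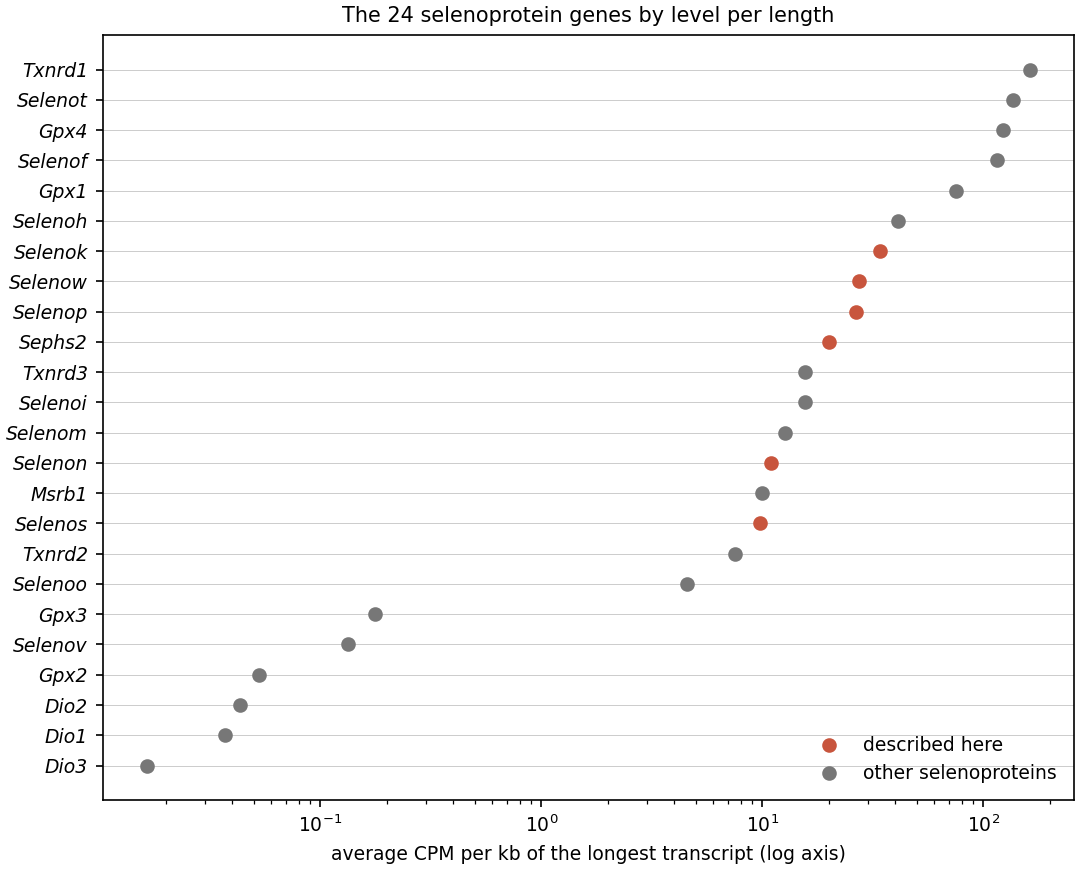
Average CPM per kb of the longest transcript (log axis) for the 24 selenoprotein genes, with the 6 genes described here in red. The 6 lie between 9.75 (Selenos) and 34.0 (Selenok), below Txnrd1 at 162 and above the group of 6 genes at or below 0.177.

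The machinery genes have partners and relatives whose levels place them. Sephs1, a paralog of Sephs2 that does not make selenophosphate, averaged 101 CPM against 43.6 CPM for Sephs2, but per kb of the longest transcript they were alike, with 19.0 and 20.0. Per kb of coding sequence Sephs1 was 2.66-fold higher, so the order of the pair rests on the length used. Secisbp2l, the paralog of Secisbp2, was higher under each length tried, by 3.43-fold with the longest transcript, 3.95-fold with the union of exons and 5.53-fold with the coding length. Sars1, the synthetase that loads serine on this tRNA and on the serine tRNAs, averaged 499.8 CPM, or 34.6-fold above Pstk in CPM. Trnau1ap, which associates with the tRNA, averaged 18.1 CPM, and Trit1, a tRNA-modifying enzyme, 17.1 CPM, both between Pstk and Secisbp2. Alkbh8, another such enzyme, averaged 31.0 CPM and lay above them. Scly, which recycles selenium from selenocysteine, averaged 117 CPM. All 14 other genes of the pathway list had at least 1 CPM, with a median of 124 CPM, from 6.64 CPM for Lrp2 to 2676 CPM for Ncl. Ncl, Rpl30 (274 CPM), Eif4a3 (131), Elavl1 (208) and Celf1 (330) bind selenoprotein mRNAs but serve many other RNAs too. Lrp8, the receptor that takes up SELENOP, averaged 35.4 CPM and 5.35 CPM per kb, so that ligand and receptor RNA were present in the same cultures, with Selenop 4.95-fold higher per kb.

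Of 12 genes for ER partners of these selenoproteins, 11 had at least 1 CPM, and the median was 133 CPM. In CPM, 11 of the 12 lay above Selenos, 10 above Selenon and 9 above Selenok. Per kb of the longest transcript, 10 lay above Selenos and 10 above Selenon, but 6 above Selenok, and per kb of coding sequence only 2 lay above Selenok. Vcp, the ATPase that pulls proteins out of the ER membrane, averaged 587 CPM, and its cofactors Nploc4 and Ufd1 averaged 334 and 97.3 CPM. The derlins, membrane proteins that SELENOS and SELENOK bind, were at 41.4 CPM (Derl1) and 60.9 CPM (Derl2), whereas Derl3 was at 0.109 CPM, or 1.64 reads per library. Among the ubiquitin ligase genes, Syvn1 averaged 32.9 CPM and Sel1l 171 CPM. Zdhhc6 averaged 111 CPM and 32.2 CPM per kb, beside 34.0 CPM per kb for Selenok, but the pair was further apart over the union of exons (13.4 and 30.2) and per kb of coding sequence (88.0 and 202). Atp2a2, the calcium pump on which SELENON acts, averaged 662 CPM and 117 CPM per kb, against 10.95 CPM per kb for Selenon.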

How the data were processed

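RNA of 6 B16F10 cultures (3 OLO, 3 OZO) was sequenced. According to the methods and processing notes, the authors aligned reads to mm10 with HISAT2 2.1.0, counted them per gene with featureCounts 2.1.1 and used limma-voom 3.58.1. The authors deposited 1 table of 27179 genes. Its average log2 CPM over all libraries, pooled over both groups, was used. The 5 other columns hold the authors' comparison (log2 fold change, moderated statistic, p-value, adjusted p-value and log odds) and were not used. Without values of each library no test between groups was made, and the tests planned for such values, a replicate block and left-out replicates were not run.

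Voom adds 0.5 reads to each count. From the lowest average, shared by 6025 genes without reads, a mean (geometric) scaled library of 19641945 reads was computed. Reads per library are geometric means over the 6 libraries, and the depth of each library is unknown. For 5479 genes with few reads, the product over libraries of doubled reads plus 1 came out as an odd whole number within 0.01 in all 5479. In simulated data with 27179 genes, 100% of the true library size came back. These data were made with the same formula, so this was fixed by construction and checks the code only. The 95% intervals treat 6 times the mean reads as the count and cover counting error only.

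Lengths, positions and selenocysteine codons came from GENCODE M21 (GRCm38). The methods name a UCSC annotation of mm10 for transcript assembly, and the one used for counting is not given in the sources used here, so counts and lengths may rest on different gene models, which touches each value per kb and each shared-exon percentage. Of 24065 Ensembl identifiers, 23821 had a length, and the 3053 rows without an identifier had none. The genes named were the 10 genes, the 24 mouse selenoprotein genes, 14 other pathway genes, 12 ER partners and cell type markers. Sars stood in the plan beside its newer symbol Sars1. Selenok-ps1 and genes overlapping the 10 were named after the values were seen. Members and lists were chosen with earlier results of these data known. Python 3.11.15, numpy 2.4.6, scipy 1.17.1 and pandas 2.3.3 were used.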

Additional observations from a re-analysis of the deposited data

How the results depend on the processing

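No paired analysis was possible because the table was used only for 1 average over all 6 libraries. All 10 genes kept reads with a minimum of 1 CPM or of 10 reads per library, and 18 of the 24 selenoprotein genes did at 1 CPM. All 10 lay above the median of all genes and, per kb, of genes with reads, but 5 did with genes of at least 1 CPM as the base. Taking off the 0.5 reads of voom moved the level of none of the 10 genes beyond its counting interval. This was not run for the other genes. Values per kb moved with the length used. With the coding length they were 32.2 CPM per kb for Sephs2, 13.4 for Pstk, 11.1 for Sepsecs, 8.41 for Secisbp2, 42.5 for Eefsec, 48.4 for Selenop, 20.4 for Selenos, 202 for Selenok, 22.6 for Selenon and 75.9 for Selenow. Over the union of exons they were 1.82 for Pstk, 2.41 for Sepsecs, 4.68 for Secisbp2, 26.6 for Eefsec, 19.4 for Selenop, 7.86 for Selenos, 30.2 for Selenok and 10.4 for Selenon. With the longest coding transcript, added after the values were seen, Pstk had 12.7. Changed lengths are by construction the cause of these shifts. Depth was no limit for the 10 genes, but the 6 selenoprotein genes under 1 CPM rest on at most 5.04 reads per library.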
